A study of Mus musculus with 9 samples.

Results

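The 6 genes described here encode subunits of AMP-activated protein kinase (AMPK) and the kinases that switch it on. They were chosen by name as Prkaa1, Prkaa2, Prkab1, Prkag2, Stk11 and Camkk2, and they are 6 of the 330 genes on the array. All 6 were present under these names, each with 1 probe (sqMM151, sqMM109, sqMM110, sqMM112, sqMM123 and sqMM023, in that order). RNA came from cultured 3T3-L1 cells, which are mouse preadipocytes that become fat-storing adipocytes under hormonal inducers. The chickpea group was grown with 0.5% CP, a preparation that the sample titles call Chickpea and whose content the labels do not describe, and was sampled on days 2, 4, 6 and 8. The control group had no additive and was sampled on the same days and on day 0, before induction. Both media carried the same inducers, methylisobutylxanthine, dexamethasone and insulin for the first 2 days and insulin alone after that. Each medium and day had 1 array, 9 in all, so there were no replicate cultures and culture and array differences cannot be told apart.

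AMPK is a sensor of cellular energy. It is a complex of a catalytic alpha subunit (Prkaa1 or Prkaa2), a scaffold beta subunit (Prkab1) and a gamma subunit that binds AMP, ADP and ATP (Prkag2). It becomes active when an upstream kinase phosphorylates the activation loop of the alpha subunit: LKB1, encoded by Stk11, or the calcium-dependent kinase encoded by Camkk2. Active AMPK restrains fatty acid synthesis and favours fatty acid oxidation, and its activation by drugs is known to hold back adipocyte formation in this cell line. The arrays measured RNA, so kinase activity and phosphorylation were not measured.

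The alpha subunits are paralogues, and only one of them was measurable in these cells. Their upstream promoter windows are shown for that reason. Each window is the 250 bases before the gene's start in RefSeq (GRCm38.p6), at chr15:5143611-5143860 on the plus strand for Prkaa1 and chr4:105109899-105110148 on the minus strand for Prkaa2. Capitals mark GC boxes (GGGCGG or its reverse complement CCGCCC, overlapping matches merged).
Prkaa1: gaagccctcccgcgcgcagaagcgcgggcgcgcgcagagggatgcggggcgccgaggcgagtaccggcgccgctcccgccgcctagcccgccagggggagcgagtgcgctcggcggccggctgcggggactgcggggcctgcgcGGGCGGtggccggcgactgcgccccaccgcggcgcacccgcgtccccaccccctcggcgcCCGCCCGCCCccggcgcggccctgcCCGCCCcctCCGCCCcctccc
Prkaa2: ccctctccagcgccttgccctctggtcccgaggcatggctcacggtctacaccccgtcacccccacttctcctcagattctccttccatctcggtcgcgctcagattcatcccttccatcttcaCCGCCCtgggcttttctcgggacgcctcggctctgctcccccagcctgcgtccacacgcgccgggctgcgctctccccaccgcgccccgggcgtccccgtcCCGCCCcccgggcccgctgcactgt
The Prkaa1 window held 5 GC boxes and had a GC content of 85.2%. The Prkaa2 window held 2 GC boxes and had a GC content of 70.0%. Across all 32851 windows of this length, 32.7% held at least 1 GC box and the median GC content was 52.4%. The TATA box (TATAAA), the E-box (CACGTG), the cAMP response element (TGACGTCA), the ETS motif (CCGGAAGT) and the direct repeat of AGGTCA with a spacer of 1 base, searched on both strands, had 0 matches in either window (12.4%, 6.02%, 1.55%, 2.88% and 0.0335% of all windows held each, in that order). Of the other members' windows, those of Stk11 (59.6% GC) and Prkab1 (65.6% GC) held no GC box, and the Stk11 window held 3 matches to CCAAT, a sequence found in 33.8% of all windows. Prkag2 had 3 windows. Window 2 (48.4% GC) also held no GC box and had 2 matches to CCAAT, and window 1 (73.2% GC) had 1. A match is a description of the letters only.

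Prkaa2, the other catalytic subunit and the form best known from muscle, was at background. Its intensity was 6, 3, 4 and 3 units in chickpea medium on days 2, 4, 6 and 8, against 2, 0, 1, 5 and 15 units in control medium on days 0, 2, 4, 6 and 8. A spot counted as above background at more than 10 units, a limit that 3 of 369 empty and negative control spots exceeded. Prkaa2 passed it on 1 of 9 arrays, control day 8, and was therefore not tested. The other 5 members passed it on 9 of 9 arrays. Prkag2 was the dim one of these, with 20 units exceeded on 6 of 9 arrays.

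Levels below are log2 intensities after quantile scaling, which gives every array the same distribution of values and sets a floor at 3.39. Chickpea effects are the mean same-day difference over days 2, 4, 6 and 8 from a limma fit across all 239 tested genes, with the standard error (SE) and the Benjamini-Hochberg adjusted p. The residual variation in this fit is that of the difference between days. By this test 36 of 239 genes, 15.1%, differed between the media (95 genes, 39.7%, at an unadjusted p under 0.05): 8.79% were higher with chickpea and 6.28% lower. Without 1 array of day 2 the count was 62 (control) or 70 (chickpea), and without 1 array of day 4 or day 6 it was between 0 and 4, with 47 to 51 genes at an unadjusted p under 0.05. On the deposited values limma called 0 genes (44 at an unadjusted p under 0.05). None of the 5 tested AMPK members passed with quantile scaling, and 2 of 5, Prkab1 and Camkk2, had an unadjusted p under 0.05. Their median chickpea effect was log2 0.26, against 0.21 over all tested genes. On 4 of 4 days, 3 of 5 members were higher in chickpea medium (Prkaa1, Prkab1 and Camkk2), against 27.6% of all tested genes. For 0 of 5 members did all chickpea arrays exceed all control arrays of days 2 to 8, against 18.4% of tested genes.

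**Figure D1:**
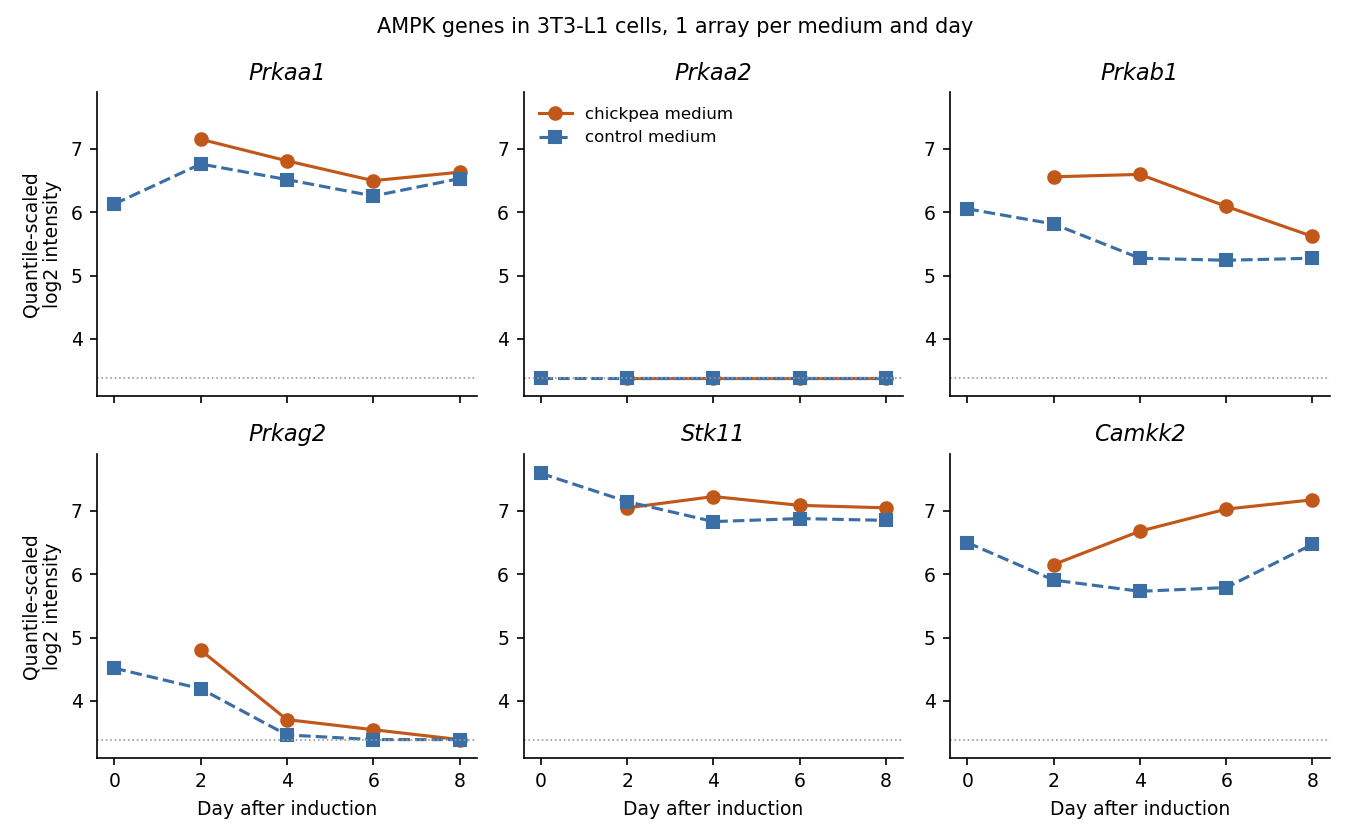
Quantile-scaled log2 intensity (vertical axis) of the 6 genes by day after induction (horizontal axis), with 1 array per point. Chickpea medium is drawn as circles, control medium as squares, and the dotted line is the floor at log2 3.39. Prkab1 and Camkk2 lie above control on all 4 shared days, and Prkaa2 lies on the floor.

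Prkaa1, the catalytic subunit that was measurable, had 315, 210, 162 and 161 units in chickpea medium on days 2, 4, 6 and 8. Control medium gave 141, 138, 275, 223 and 341 units on days 0, 2, 4, 6 and 8. After scaling the levels were 7.15, 6.81, 6.50 and 6.63 in chickpea medium, against 6.13, 6.76, 6.52, 6.26 and 6.53 in control medium with day 0 first. The chickpea arrays were the higher ones on every shared day, the groups overlapped, and the unscaled units ran the other way from day 4 on. The chickpea effect was log2 0.26 ± 0.15 (SE, n = 4 days; limma adjusted p = 0.244). Prkaa1 was above its day 0 level on 4 of 4 days in either medium, which held for 28.5% of tested genes in chickpea medium and 17.2% in control medium. On the deposited values, which the authors' table scales to Gapdh, it was instead below day 0 on 3 of 4 chickpea days and 4 of 4 control days, and with control gene scaling it was below on 2 of 4 chickpea days.

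Prkab1, the scaffold subunit, showed the highest chickpea effect of the members with quantile scaling (Camkk2 was higher under the other 5 scalings), which did not pass the test. It also had lower levels after day 0 in control medium, which were not tested by themselves. It had 216, 172, 108 and 78 units in chickpea medium, against 138, 75, 131, 127 and 162 units in control medium with day 0 first. The scaled levels were 6.56, 6.60, 6.09 and 5.62 in chickpea medium, against 6.05, 5.81, 5.27, 5.24 and 5.27 in control medium. The chickpea level exceeded that of the same control day throughout, and only the chickpea day 8 array lay within the control range of days 2 to 8. The same-day difference (log2) was 0.75 on day 2, peaked at 1.32 on day 4, and was 0.85 on day 6 and 0.34 at day 8. The chickpea effect was log2 0.82 ± 0.21 (SE, n = 4 days), or 1.76-fold, with a limma p of 0.0125 and an adjusted p of 0.0620. It did not pass the threshold, and 48 of the 239 tested genes had a higher estimate. Without day as a block the adjusted p was 0.0465.

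Prkag2, the nucleotide-binding subunit, was near the floor from day 4 on after quantile scaling. It had 51, 17, 16 and 11 units in chickpea medium, against 42, 21, 48, 43 and 49 units in control medium with day 0 first. The scaled levels were 4.80, 3.70, 3.54 and 3.39 in chickpea medium, against 4.52, 4.19, 3.46, 3.39 and 3.39 in control medium. Chickpea day 8 and control days 6 and 8 sat on the floor, so the day 8 difference has no measured size. The floored control arrays had 43 and 49 units, above the background limit and above day 0, so the floor was reached there through the scaling. The chickpea effect was log2 0.25 ± 0.18 (SE, n = 4 days; limma adjusted p = 0.312). Its direction turned with the scaling: 4 of 6 scalings gave a value below 0, down to -0.83 without scaling.

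Stk11, which encodes LKB1, had the smallest chickpea estimate of the tested members with quantile scaling. It had 307, 310, 247 and 209 units in chickpea medium, against 344, 182, 353, 353 and 413 units in control medium with day 0 first. The scaled levels were 7.05, 7.23, 7.09 and 7.05 in chickpea medium, against 7.59, 7.15, 6.83, 6.88 and 6.85 in control medium. After scaling day 0 was the highest array, while in units it was control day 8, and the media overlapped. The chickpea level was lower on day 2 and higher on the other 3 days, with an effect of log2 0.18 ± 0.16 (SE, n = 4 days; limma adjusted p = 0.429). Stk11 was below day 0 on 4 of 4 days in chickpea medium and in control medium, as were 24.7% and 41.0% of tested genes. Without scaling it was below on 1 of 4 control days, and with median scaling on 3 of 4 chickpea days.

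Camkk2, the calcium-dependent upstream kinase, had its highest quantile-scaled levels late in chickpea medium. In units the highest array was control day 8, and on the deposited values it was day 0, with 4 of 4 chickpea days below it. It had 167, 148, 248 and 240 units in chickpea medium, against 139, 63, 142, 172 and 335 units in control medium with day 0 first. The scaled levels were 6.15, 6.68, 7.03 and 7.18 in chickpea medium, against 6.50, 5.91, 5.73, 5.79 and 6.47 in control medium. In control medium the day 0 and day 8 arrays were alike and the days between were lower, while the chickpea arrays of days 4, 6 and 8 exceeded every control array. From the second day to the last, the same-day difference was log2 0.25, 0.95, 1.24 and 0.70, largest on day 6. The chickpea effect was log2 0.78 ± 0.22 (SE, n = 4 days), or 1.72-fold, with a limma p of 0.0160 and an adjusted p of 0.0640. It did not pass the threshold with all arrays. An array left without its same-day partner adds nothing to this effect. Leaving out either or both arrays of a day is therefore 1 check, with values that differ through the rescaling. Without the control day 2 array the effect was 0.97 (adjusted p = 0.0326), without the chickpea day 2 array 0.95 (adjusted p = 0.0313), and without both 0.96 (adjusted p = 0.0280). Without 1 array of day 4 or day 6 it was between 0.63 and 0.73 (adjusted p between 0.235 and 0.260), and without 1 of day 8 it was 0.81 or 0.82 (adjusted p = 0.119 and 0.111).

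**Figure D2:**
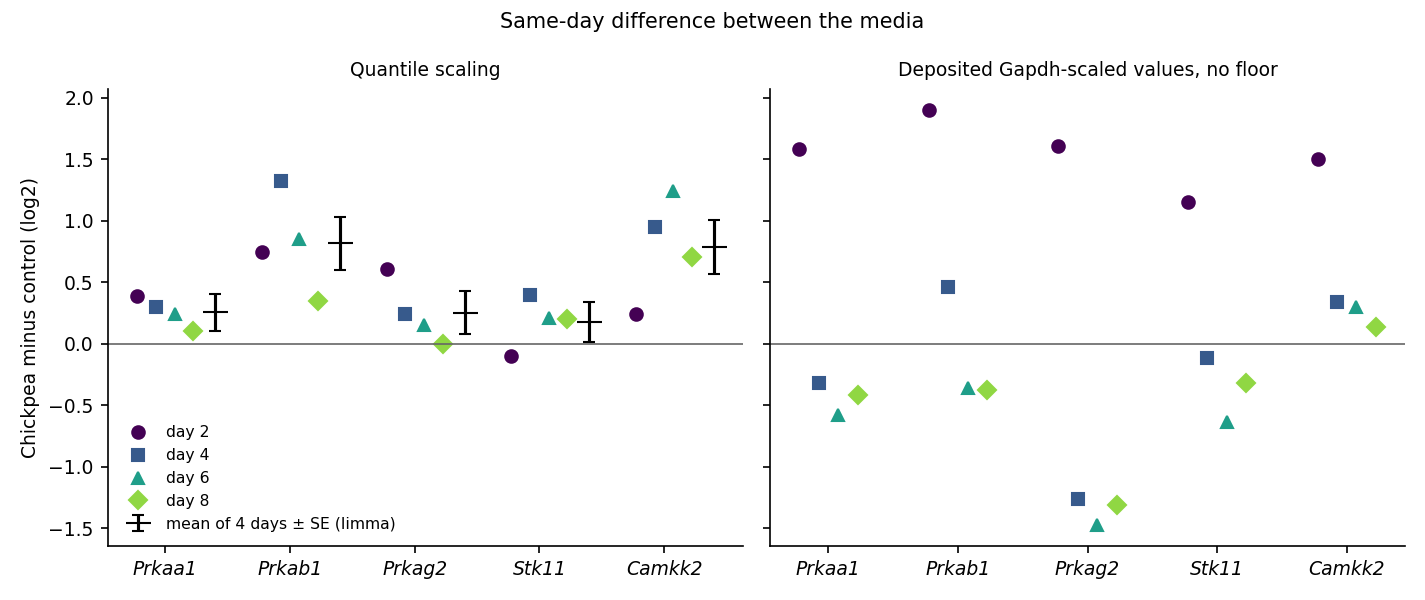
Chickpea minus control difference in log2 intensity (vertical axis) for the 5 tested genes on each day, after quantile scaling (left, with the limma mean of 4 days ± SE) and on the deposited Gapdh-scaled values without a floor (right). Camkk2 is above 0 on all 4 days in both panels, while the other 4 genes are above 0 on day 2 and below 0 on days 6 and 8 in the right panel.

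The size and partly the direction of these differences depended on how the arrays were scaled. Median intensity of the metabolic genes, without the control genes, was 55 to 64 units on the chickpea arrays of days 4 to 8. It was 129 to 168 units on the control arrays of those days. On day 2 the order was reversed, with 83 units in chickpea medium and 47 in control medium. Gapdh, the glycolytic gene behind the deposited scaling, had 13559, 22530, 29464 and 23761 units in chickpea medium on days 2 to 8, against 15917, 24704, 26686 and 37339 units in control medium on the same days and 9973 on day 0. Estimates for Camkk2 were above 0 under 6 of 6 scalings, between log2 0.23 (control genes) and 1.03 (array median, adjusted p = 0.0418). Prkab1 was also above 0 under 6 of 6, between 0.06 (control genes) and 0.86 (array median), with the lowest adjusted p at 0.0594. Prkaa1 and Stk11 were below 0 with control gene scaling (-0.28 and -0.32) and without scaling (-0.18 and -0.23). These shifts went with that of all tested genes, whose median chickpea effect was 0.21 with quantile scaling, -0.38 with control gene scaling and -0.32 without scaling.

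**Figure D3:**
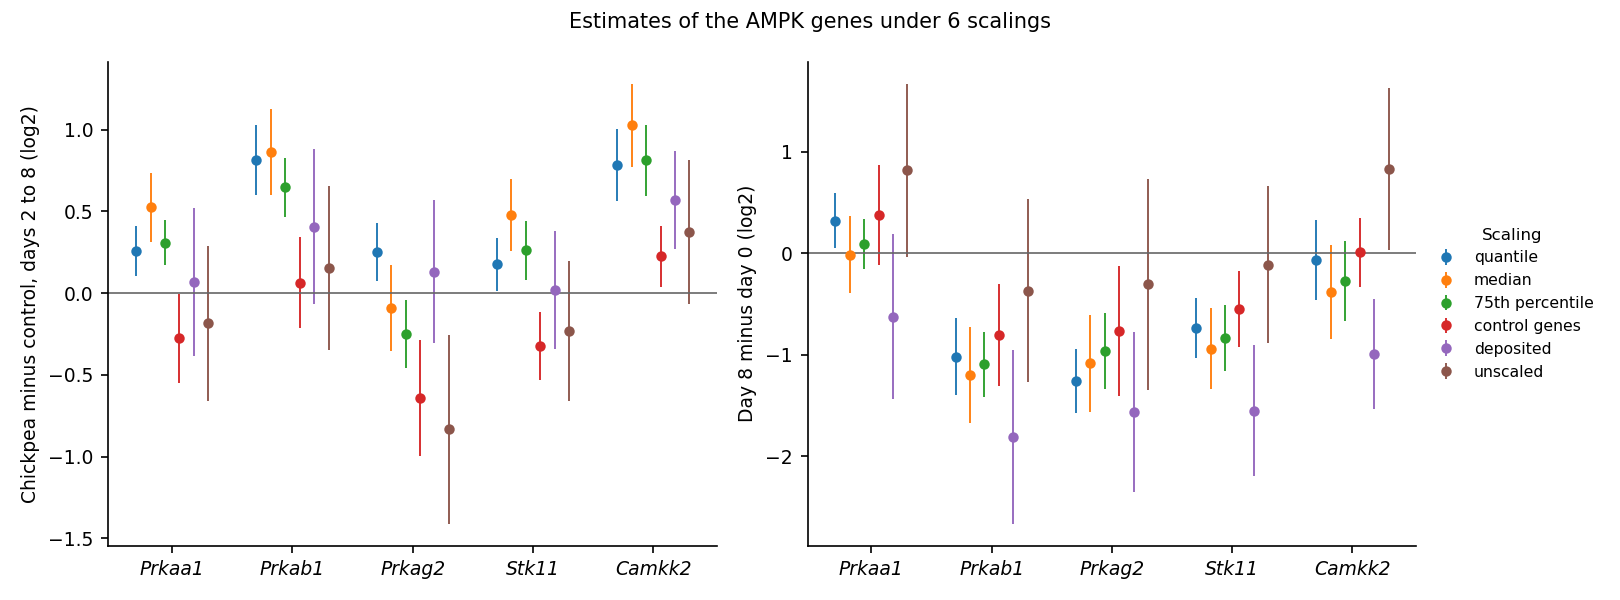
Estimated log2 differences ± SE (limma) of the 5 tested genes under 6 scalings, for chickpea minus control over days 2 to 8 (left) and day 8 minus day 0 (right). Prkab1 and Camkk2 stay above 0 in the left panel, and Prkab1, Prkag2 and Stk11 stay below 0 in the right panel.

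A difference between 2 genes on the same arrays is not moved by a factor that both share. The deposited scaling has a factor for each of 2 blocks, and quantile scaling is not a single factor. Camkk2 and Stk11 did not share theirs. On chickpea day 4, 148 units of Camkk2 became 76.3 in the deposited values, and 310 units of Stk11 became 124.2. Array scaling thus does not cancel in their difference. Among the 10 pairs of tested members, the chickpea effect of Stk11 minus that of Camkk2, the alternative upstream kinases, was log2 -0.61 (SD 0.30 over 4 days) with quantile scaling and -0.55 (SD 0.26) on the deposited values. Camkk2 had the higher effect on 4 of 4 days on either scale. The exact two-sided sign-flip p was 0.125, the smallest that 4 days allow, and 0.3125 after adjustment over the 10 pairs, so no pair could pass. Prkab1 likewise exceeded Prkag2 on 4 of 4 days on both scales, by 0.56 and 1.02. Prkaa1 minus Prkab1 was -0.56 and -0.34, below 0 on 4 of 4 days on both scales. Prkab1 minus Camkk2 was 0.03 with quantile scaling and -0.16 on the deposited values, Prkab1 being the higher on 2 of 4 days on either scale. Prkab1 and Camkk2 did not share a factor either. On chickpea day 4, 172 units of Prkab1 became 69.4.

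No member's chickpea difference changed linearly with day by the limma test, which called 8 of 239 genes (3.35%; 2.51% upward and 0.837% downward), with 75 genes (31.4%) and 0 members at an unadjusted p under 0.05. The slopes ran from log2 -0.10 ± 0.05 per day for Prkag2 (SE; adjusted p = 0.272) to 0.08 ± 0.09 per day for Camkk2 (adjusted p = 0.490). The slope of Camkk2 was below 0 with control gene scaling, on the deposited values and without scaling.

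Day 8 was compared with day 0 in a limma fit with terms for day and medium, which takes the medium effect as the same on every day. It called 5 of 239 genes (2.09%; 1.26% higher on day 8 and 0.837% lower) and none of the 5 members, with 56 genes (23.4%) and 2 members, Prkab1 and Prkag2, at an unadjusted p under 0.05. The single day 0 array sets this difference, and the p assumes that it varies like the others. Because the medium effect is taken as the same on every day, fitted values can lie outside the day 8 changes on the arrays themselves. Those changes (log2, control then chickpea medium) were -0.78 and -0.44 for Prkab1 and -1.13 and -1.13, both floored, for Prkag2. They were -0.74 and -0.54 for Stk11, -0.03 and 0.68 for Camkk2, and 0.40 and 0.50 for Prkaa1. Prkag2 was lower on day 8 by a fitted log2 -1.25 ± 0.32 (SE, limma adjusted p = 0.106), a value that includes floored arrays. It lies beyond the change on either day 8 array, so its size was not measured. Without the control day 2 array the Prkag2 estimate was -1.20 and passed (adjusted p = 0.0464). Without the chickpea day 2 array it was -1.15 and did not pass (adjusted p = 0.0567). With a background limit of 20 units, which also moves the floor, it was -0.40 (adjusted p = 0.445). Prkab1 was at -1.02 ± 0.38 (adjusted p = 0.198) and Stk11 at -0.73 ± 0.30 (adjusted p = 0.217), while the median of all tested genes was -0.36. These 3 estimates were below 0 under 6 of 6 scalings. Camkk2 was at -0.07 ± 0.39 (adjusted p = 0.941) and Prkaa1 at 0.32 ± 0.27 (adjusted p = 0.519), and both turned direction with the scaling. In control medium 4 of 5 members were below day 0 on 4 of 4 days, against 41.0% of tested genes. Without scaling Prkab1 was below on 3 of 4 days, and Prkag2, Stk11 and Camkk2 on 1 of 4.

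The summed intensity of adipocyte markers was lower on the chickpea arrays than on the control arrays of days 4 to 8. Of 15 adipocyte markers on the array, 8 to 11 were above background on chickpea arrays, against 12 to 15 on control arrays of days 2 to 8 and 7 on day 0. Their summed intensity was 4891 to 8975 units in chickpea medium, against 5654 to 91351 units in control medium on days 2 to 8. Of 14 tested markers, 7 were lower in chickpea than in control medium by the limma test, at a list median of log2 -2.03. Over all tested genes 6.28% were lower and the median was 0.21. In a bulk sample fewer adipocytes and less RNA per adipocyte cannot be told apart, and the part of this difference in the AMPK values was not tested. Of 4 preadipocyte markers 1 was lower in chickpea medium by the limma test. Their list median was log2 -0.08, with 2 estimates above 0 and 2 below. Their summed intensity, which is unscaled, was 2090 to 3958 units in chickpea medium, against 5477 to 15734 units in control medium on days 2 to 8. Hepatocyte markers were above background on 0 arrays (3 genes), and 0 to 2 of 3 endothelial markers were above it. Of the 6 macrophage and 5 skeletal muscle markers listed, 0 were on the array.

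Around the kinase, the array carried genes of its inputs, its substrates and processes it controls, from lists chosen from general knowledge of the pathway. Of 8 input genes on the array 5 were tested, with a median chickpea effect of log2 -0.00. Adipor1, a receptor through which adiponectin activates AMPK, rose by log2 0.95 ± 0.16 (SE, n = 4 days; limma adjusted p = 0.0288). Adiponectin itself, Adipoq, fell by 5.22 ± 0.91 on the log2 scale (SE, n = 4 days; adjusted p = 0.0288), a fitted value with 2 chickpea arrays at the floor. The other adiponectin receptor, Adipor2, was at -0.09 (adjusted p = 0.727), the visfatin gene Nampt at -0.00 and Il6 at 0.05. Lepr, the leptin receptor, was not tested. Of 12 other subunits and kinase partners, Camkk1 alone was on the array, at a fitted log2 0.43 ± 0.20 (SE; adjusted p = 0.173), with the control arrays of days 2 to 8 at the floor after scaling, and at 0.07 with control gene scaling.

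Of 13 genes on the array for proteins described as AMPK substrates, 10 were tested, and 2 rose and 1 fell with chickpea, with a list median of log2 0.20. Over all tested genes 8.79% rose, 6.28% fell and the median was 0.21. Ppargc1a, a coactivator of mitochondrial gene expression, rose by 2.57 ± 0.33 on the log2 scale (SE, n = 4 days; adjusted p = 0.0141), a fitted value with 2 control arrays at the floor and between 1.53 and 2.57 over the 6 scalings. Insr, the insulin receptor, rose by 1.33 ± 0.24 (SE, n = 4 days; adjusted p = 0.0288). Lipe, hormone-sensitive lipase, fell by 3.32 ± 0.21 on the log2 scale (SE, n = 4 days; adjusted p = 0.00411), and was the one gene of the 4 pathway lists called on day 8 against day 0, where it rose by 5.16 ± 0.37 (SE; adjusted p = 0.00497). Acaca, the cytosolic acetyl-CoA carboxylase that AMPK inhibits, was at 0.19 (adjusted p = 0.421). Srebf1, a driver of lipid synthesis genes, was at -0.93 (adjusted p = 0.0759), the triglyceride lipase gene Pnpla2 at -1.41 (adjusted p = 0.0759) and Creb1 at 1.09 (adjusted p = 0.0609). With control gene scaling the values were 0.18 for Adipor1, 0.25 for Insr and 1.53 for Ppargc1a, and none of the 3 passed. The chickpea effect of Lipe lay between -4.28 and -3.32 over the 6 scalings and did not pass on the deposited values (limma adjusted p = 0.0975). Its day 8 rise lay between 4.70 and 6.14. That rise did not pass with control gene scaling (adjusted p = 0.0827), on the deposited values (0.217) or without scaling (0.0628).

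Of 15 downstream genes on the array 11 were tested, and 0 rose and 1 fell, with a list median of log2 0.15. Acadm, a mitochondrial fatty acid oxidation enzyme, fell by 1.81 ± 0.31 on the log2 scale (SE, n = 4 days; limma adjusted p = 0.0288). Cpt1a, which controls fatty acid entry into mitochondria, was at 2.07 ± 0.49 and missed the threshold (adjusted p = 0.0512). Slc2a4, the insulin-responsive glucose transporter, was at -2.36 (adjusted p = 0.0699) and was on the floor on 4 of 4 chickpea arrays. Eif4ebp1, a translation repressor under mTOR, was at 1.46 (adjusted p = 0.0749). The linear change with day called 0 genes in the 4 lists.

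**Figure D4:**
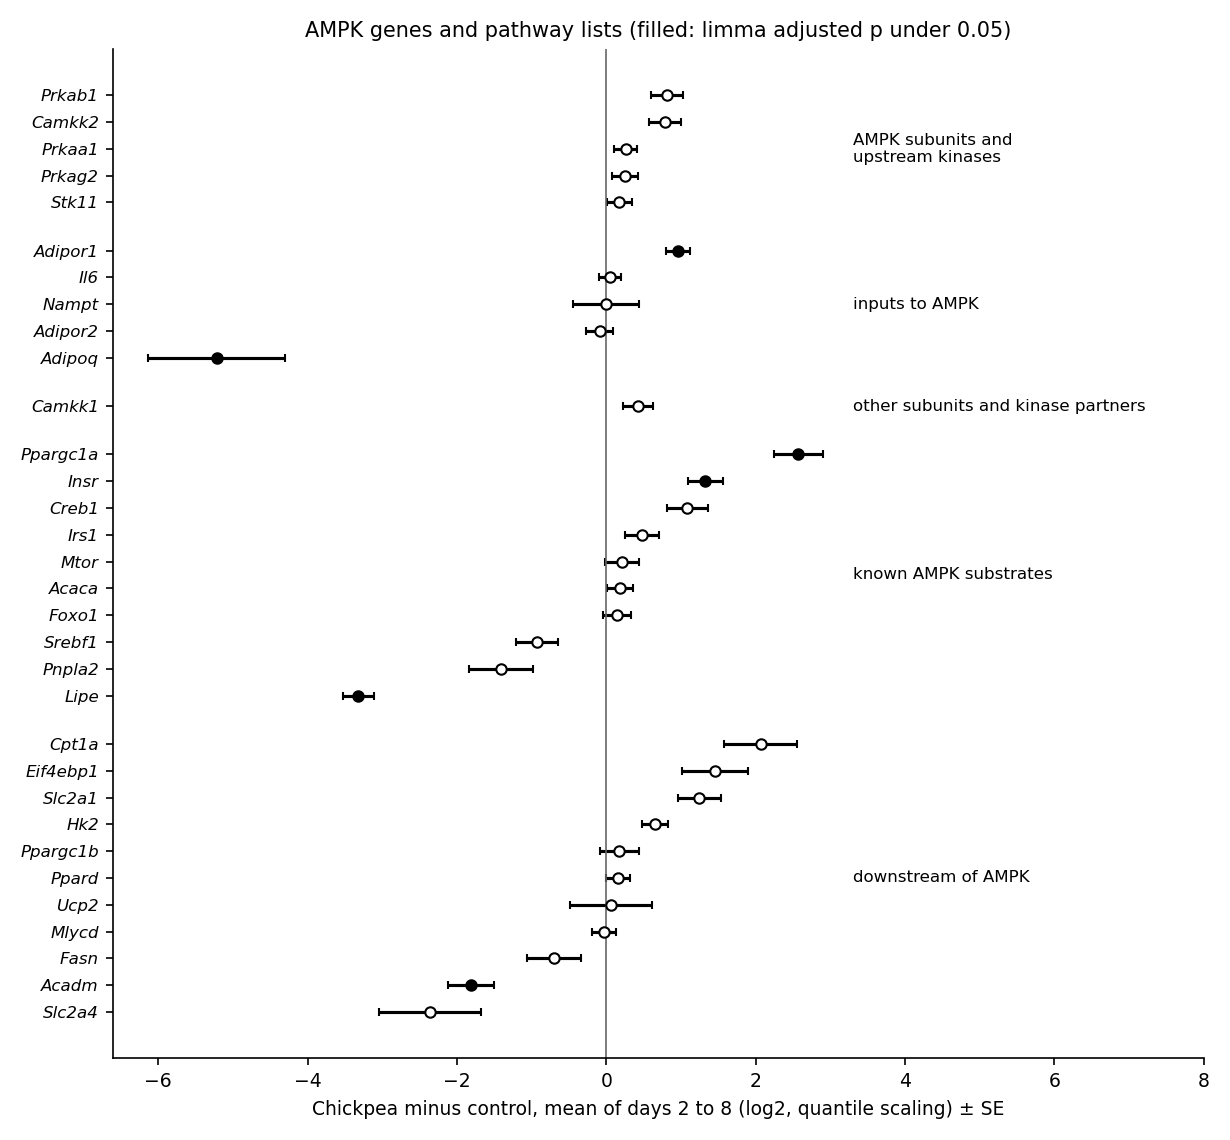
Chickpea minus control difference over days 2 to 8 (log2 ± SE, limma, quantile scaling, horizontal axis) for the 5 tested AMPK genes and for the tested genes of the 4 pathway lists. Filled points passed at an adjusted p under 0.05: Adipor1, Ppargc1a and Insr to the right, Adipoq, Lipe and Acadm to the left, and none of the AMPK genes.

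The genes whose levels followed each member most closely were taken by Pearson's r over the 9 arrays, which share culture, array and day, so the r values are descriptions. Prkab1 was followed by the cell cycle factors E2f5 (r = 0.98) and E2f4 (r = 0.95) and by Gsk3a (r = 0.95), a glycogen synthase kinase. Camkk2 was followed by the growth factor Vegfb (r = 0.88), the macrophage growth factor Csf1 (r = 0.85) and the kinase Araf (r = 0.85). For Prkaa1 they were the fatty acid receptor Ppard (r = 0.91), the stress kinase Mapk14 (r = 0.83) and Rxrb (r = 0.83). For Prkag2 they included the coactivator Ncoa2 (r = 0.85) and Khdrbs1 (r = 0.85), and for Stk11 they were the complement factor Cfi (r = 0.88, above background on 5 arrays), Tfap2a (r = 0.87) and the adaptor Grb2 (r = 0.85). Among the members themselves r ran from -0.20 for Prkaa1 with Stk11 to 0.65 for Prkab1 with Prkag2.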

How the data were processed

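RNA of 9 3T3-L1 cultures was hybridised to 1-colour arrays with 321 metabolic genes and 9 control genes. Per the file headers, spots were read in GenePix Pro 6.1.0.4. The deposited table holds intensity on a linear scale. Worked out from the values, each entry is the background-subtracted median plus 2 or 3 units, scaled so that Gapdh averages 10000 in each of 2 blocks. All 354 entries per sample matched 1 spot each (relative tolerance 1e-06), and rows were named through that match, since the scanner's well names match no sample label. Values in units rest on it. The build and the authors' software for the table are not given in the sources used here.

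The deposited intensities were put on a log2 scale and averaged over spots of a probe. Each gene took its brightest probe, and quantile normalisation and the floor followed. Genes above 10 units on at least 2 arrays were kept (247), and 8 of them were constant at the floor, leaving 239 tested. limma 3.58.1 (lmFit and eBayes, R 4.3.3) was fitted 3 times, for chickpea minus control with day as a block (8 arrays, 3 residual degrees of freedom), its linear change with day (2) and day 8 minus day 0 with terms for day and medium (9 arrays, 3). P-values are two-sided and adjusted over 239 genes by Benjamini-Hochberg, with a threshold of 0.05. The number of arrays limits the precision, and with 1 array per medium and day p-values measure the spread of the difference between days, not between cultures. Same-day arrays are paired by the labels. On 4 Hprt spots per array the median SD was 0.09 log2. The fits were tested on simulated data.

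The members and gene lists were chosen with earlier results of these data known. Named genes are the members, pathway genes past the test, the 2 highest and 2 lowest chickpea estimates of each pathway list, 10 genes set by name, and the 3 most alike genes per member above 10 units on at least 5 arrays. The pathway genes Nampt and Creb1 are named outside this rule. A gene that this rule names is not reported here. Acacb, one of the 10, was not found among the array's names. Alternatives varied the scaling, filter, limit, floor, variance prior, day block and arrays left out. Promoter windows are RefSeq's (GRCm38.p6), matched by symbol for 6 of 6 members.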

Additional observations from a re-analysis of the deposited data

How the results depend on the processing

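Over 325 refits of the 5 tested members, 287 kept the direction and the side of the threshold, 6 passed it and 32 turned direction, of which 0 were past the threshold. Passing were Camkk2 with chickpea under median scaling (1.03, adjusted p = 0.0418) and without either or both day 2 arrays, Prkab1 without the replicate block (0.82, adjusted p = 0.0465) and Prkag2 on day 8 without the control day 2 array (-1.20, adjusted p = 0.0464). The Camkk2 refits without day 2 arrays are the same check, since an array without its same-day partner adds nothing to the chickpea effect. The block changed no other member's call for the chickpea effect.

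Chickpea effects turned for Prkag2 with median (-0.0906), 75th percentile (-0.25), control gene (-0.64) and no scaling (-0.83) and on deposited values with no floor (-0.61), an alternative chosen after seeing the data. They turned for Prkaa1 and Stk11 with control gene (-0.28 and -0.32) and no scaling (-0.18 and -0.23). Slopes turned for Stk11 with median (-0.0014), control gene (-0.0673), no scaling (-0.28) and deposited values with or without a floor (-0.25), for Camkk2 with control gene (-0.0287), no scaling (-0.26) and deposited values with or without a floor (-0.21), and for Prkaa1 with 75th percentile scaling (0.0119). They also turned without either day 2 array for Stk11 (-0.0516 to 0.0763 over all arrays left out) and Camkk2 (-0.0615 to 0.248), and without either day 8 array for Prkab1 (-0.247 to 0.0302). Day 8 differences turned for Prkaa1 with median scaling (-0.0116) and deposited values with or without a floor (-0.62), and for Camkk2 with control gene (0.00979), no scaling (0.83) and without either day 6 array (-0.158 to 0.00898 over all arrays left out). The cause was not tested.

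The count of genes called with chickpea, 36, was 0 on the deposited values (limma, 44 at an unadjusted p under 0.05), 14 without scaling, 15 on deposited values with no floor, 73 without the replicate block, and 0 to 70 with arrays left out (46 to 109 unadjusted). The 21 higher and 15 lower genes became 14 and 18 with 75th percentile scaling and 0 and 29 with control gene scaling. The 8 genes called for the slope became 0 with control gene scaling (54 unadjusted), 0 on the deposited values (46 unadjusted), 3 without a floor, 3 on deposited values with no floor, 22 among genes above the limit on every array, and 0 to 38 with arrays left out (38 to 72 unadjusted). The 5 called on day 8 became 0 with control gene scaling (34 unadjusted), 0 on the deposited values (49 unadjusted), 0 without scaling (30 unadjusted), 2 among genes above the limit on every array, 11 with a limit of 20 units, 9 without a floor, 9 with an eBayes trend, 8 with robust eBayes, 2 on deposited values with no floor, and 0 to 29 with arrays left out (37 to 81 unadjusted). Leaving out the day 0 array gives no day 8 value.

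Signal over background limits Prkaa2, at or below 15 units on all 9 arrays. Prkag2 was above the limit on 9 arrays and reached the floor on 3 after scaling.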
